A study of Mus musculus with 2 samples.

Results

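Pi16 Dpp4 cells are fibroblasts of the mouse knee joint that carried transcripts of the secreted protein gene Pi16 and of the cell surface peptidase gene Dpp4 together with the fibroblast receptor gene Pdgfra. They were chosen, in a merged single-cell matrix, from barcodes that held 500 genes or more, 1000 or more UMIs (unique molecular identifiers, each a counted transcript) and no more than 10% mitochondrial UMIs. Each had at least 1 UMI of Pdgfra, Pi16 and Dpp4, none of the leukocyte gene Ptprc, and UMIs of fewer than 3 of the 5 cytokine genes Cxcl5, Csf2, Csf3, Ptgs2 and Saa3. The rule selected 982 of 15174 kept cells, or 6.47% (exact 95% Clopper-Pearson interval 6.09 to 6.87), out of 24203 barcodes.

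Fibroblasts with Pi16 and Dpp4 are known from the adventitia of vessels, the fascia and the loose connective tissue of many mouse organs. They are described there as a resting population at the base of fibroblast and fat cell lineages, and as a producer of elastic microfibrils and of chemokines that call in leukocytes. Pi16 encodes a peptidase inhibitor of the CAP family, and Dpp4 (CD26) trims the ends of chemokines and gut hormones. Pdgfra is a growth factor receptor of most connective tissue cells.

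The series asked what joints lacking collagen XII look like at the level of single cells. Hindlimb knee joints without skin and paws came from Col12a1 KO mice and from Col12a1 WT mice, both sexes at postnatal day 7, and collagenase II (4 mg/mL, 6 h) freed the cells of all of them before 10x Genomics 3' v3 libraries were made. The labels describe 3 libraries per genotype from 2 experiments, merged in 1 matrix whose barcodes end in 1 or 2. These endings are called barcode sets 1 and 2 here. No label ties an ending to a genotype, so genotype and barcode set cannot be told apart, no KO and WT values are given, and counts of the targeted gene could not check the labels. The labels name neither the strain, the allele nor how many animals were pooled.

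Pi16 Dpp4 cells numbered 367 of 7160 kept cells in set 1 (5.13%) and 615 of 8014 in set 2 (7.67%). They held 21289198 UMIs, with a median of 19981 per cell (range 4990 to 149685) and 4329 genes. The 2 sets shared 40 barcode sequences among all barcodes, 14 among kept cells and 0 among Pi16 Dpp4 cells. Levels are UMIs summed over the cells of a group per 1000000 UMIs of that group (CPM), and a pair of values in brackets after a level gives barcode sets 1 and 2 in that order. Ratios carry exact conditional binomial 95% intervals, which cover counting error only. Cells of 1 matrix are not replicates, so no test of any difference was made and no p-value is given.

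The members differed widely in the genes that chose them. Pi16 had a median of 7 UMIs per member (interquartile range 3 to 18), Dpp4 3 (1 to 5) and Pdgfra 4 (2 to 7). Just inside the rule were 118 members with a single Pi16 UMI, 251 with a single Dpp4 UMI and 49 with a single UMI of both, while 662 had at least 2 of both. By cytokine genes, 358 members had UMIs of none of the 5, 399 of 1 and 225 of 2. Just outside were 123 cells with Pi16, Dpp4 and Pdgfra but 3 cytokine genes, 214 with Pi16 and Dpp4 but no Pdgfra UMI, and 47 with a Ptprc UMI.

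Other Pdgfra cells, the nearest cells outside the rule, passed the same filters on Pdgfra, Ptprc and cytokine genes but lacked Pi16, Dpp4 or both. They numbered 3094 (1419 and 1675), with a median of 13931 UMIs, and comprised 559 cells with Pi16 only, 424 with Dpp4 only and 2111 with neither. Cytokine Pdgfra cells had 3 or more of the 5 cytokine genes, whatever their Pi16 and Dpp4, and numbered 426 (298 and 128), with a median of 27122 UMIs. Both comparisons share the Pi16 Dpp4 cells. A gene was counted as higher or lower when it had at least 100 UMIs in both groups together and differed at least 2-fold over all cells and in each barcode set, and the 9 genes of the rule were left out of every count.

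Pi16 and Dpp4 were often found in the same cells. Among Pdgfra cells thinned to 5000 UMIs each, Dpp4 was detected in 500 of 1120 cells with Pi16 (44.6%, 41.7 to 47.6) and in 286 of 2864 without it (9.99%, 8.91 to 11.1). The order was the same in set 1, at 42.2% and 8.86%, and in set 2, at 46.1% and 11.0%. Seen the other way, 63.6% of cells with Dpp4 had Pi16, against 19.4% of cells without Dpp4. With every cell thinned to 2000 UMIs, Pi16 was found in 58.7% of Pi16 Dpp4 cells, 6.49% of other Pdgfra cells and 3.92% of blood-gated cells. Blood-gated cells were gated by Ptprc or at least 10% haemoglobin UMIs. Pi16 was found in them more often than Cd34, Ly6a or Clec3b, given below, and whether they express it was not tested. Dpp4, which some leukocytes express, was found in 30.3% of Pi16 Dpp4 cells, 3.28% of other Pdgfra cells and 5.81% of blood-gated cells. Without thinning Pi16 was found in 100%, 18.1% and 12.6% of these groups. A single Pi16 UMI may come from free RNA, whose part in the membership was not tested. These shares concern the genes that define the cells and are given as a description.

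The name adventitial fibroblast was set beside 8 marker genes that the rule did not use. These were chosen with earlier results of these data known, so they are a description and not an independent check. All 8 were at least 2-fold higher in Pi16 Dpp4 cells than in other Pdgfra cells in both sets. Cd34, a sialomucin of progenitor cells and vessel walls, stood at 589 CPM in Pi16 Dpp4 cells (574 and 598), against 176 CPM in other Pdgfra cells (154 and 199), a ratio of 3.34 (3.25 to 3.43). Ly6a, which encodes the stem cell antigen Sca-1, stood at 892 CPM in Pi16 Dpp4 cells (881 and 899), against 199 CPM in other Pdgfra cells (171 and 226), a ratio of 4.49 (4.38 to 4.59). In both genes each set of Pi16 Dpp4 cells lay above each set of other Pdgfra cells. Ly6c1 had a ratio of 4.84 (4.67 to 5.02), Cd248 (endosialin) 4.31 (4.14 to 4.49), Sema3c, a secreted semaphorin, 3.83 (3.74 to 3.92), Cd55, a brake on complement, 3.72 (3.57 to 3.86), Clec3b (tetranectin) 3.11 (3.06 to 3.16), and Dpt (dermatopontin) 2.59 (2.54 to 2.64). Reads of Ly6c1 may be split with its close copy Ly6c2, so its level is uncertain. These 8 belong to a list of 28 adventitial genes described further on, of which 7 were not counted as higher. Without cells that held markers of other lineages, defined in a later paragraph, the 8 ratios lay between 1.66 (Dpt) and 3.59 (Cd55), and Cd34 (2.03), Clec3b (1.86) and Dpt no longer counted as higher in both sets. The files hold no positions in tissue, so the name rests on these genes and not on a place beside vessels.

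Detection per cell gave the same order at equal depth. With every cell thinned to 2000 UMIs, Cd34 was found in 58.2% of Pi16 Dpp4 cells, 26.6% of other Pdgfra cells and 1.23% of blood-gated cells. Ly6a was found in 74.6%, 23.6% and 1.05% of the same groups, and Clec3b in 92.4%, 50% and 0.800%. Without thinning Cd34 was found in 97.3%, 61.3% and 4.10%, Ly6a in 95.5%, 43.2% and 3.14% and Clec3b in 100%, 71.6% and 2.71%, at median depths of 19981, 13931 and 6971.5 UMIs. Thinning left out 0 Pi16 Dpp4 cells, 11 other Pdgfra cells and 252 blood-gated cells.

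Of a list of 28 genes known from adventitial or universal fibroblasts, none of them in the rule, a thinned Pi16 Dpp4 cell held UMIs of a median of 11 (10 in set 1 and 11 in set 2). The median was 5 in other Pdgfra cells and 1 in blood-gated cells. Cells with Pi16 only and cells with Dpp4 only both had a median of 7, and cells with neither 4. At least 5 of the 28 genes were found in 96.6% of Pi16 Dpp4 cells, 50.5% of other Pdgfra cells and 0.616% of blood-gated cells. The plot of adventitial genes per cell shows that the distributions of Pi16 Dpp4 cells and other Pdgfra cells overlap between 2 and 19 genes.

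**Figure D1:**
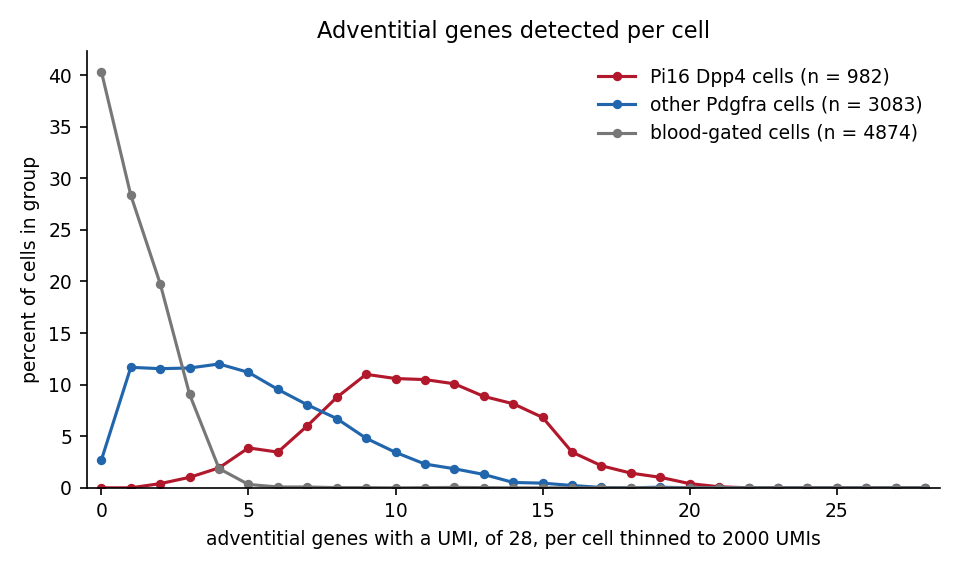
Number of 28 adventitial genes with a UMI per cell (x axis) after thinning every cell to 2000 UMIs, as percent of the cells of each group (y axis), for Pi16 Dpp4 cells (red), other Pdgfra cells (blue) and blood-gated cells (grey). Pi16 Dpp4 cells centre on a median of 11 genes, other Pdgfra cells on 5 and blood-gated cells on 1.

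Markers of other cell types were mostly lower in Pi16 Dpp4 cells than in other Pdgfra cells when summed over each list. Pi16 Dpp4 cells had 14.8 CPM of 6 endothelial genes, 56.3 CPM of 6 pericyte or smooth muscle genes and 8.22 CPM of 6 macrophage genes, against 71.8, 182 and 15.0 CPM in other Pdgfra cells. They had 721 CPM of 7 chondrocyte genes, 13.7 CPM of 6 osteoblast genes, 109 CPM of 5 tenocyte genes and 241 CPM of 4 synovial lining genes, against 5557, 753, 809.9 and 2001 CPM. Schwann cell genes were the exception, at 59.7 CPM (105 and 30.5), against 31.1 CPM in other Pdgfra cells (28.2 and 33.8), and muscle genes summed to 242 CPM in Pi16 Dpp4 cells and 219 CPM in other Pdgfra cells. The epithelial keratins Krt5 and Krt14 and the lymphoid genes Cd3e and Nkg7 were at 0 UMIs in Pi16 Dpp4 cells, which allows up to 0.141 CPM (3 UMIs of the group total). A single member held 74.4% of the UMIs of the pericyte gene Rgs5 and 23.5% of those of the cartilage collagen gene Col2a1. A set of 40 markers of other lineages joined the endothelial, pericyte or smooth muscle, Schwann, chondrocyte, osteoblast, tenocyte and synovial lining lists. Muscle, macrophage and blood cell genes were not among them. UMIs of at least 3 of the 40 were found in 406 Pi16 Dpp4 cells (41.3%) and in 1963 other Pdgfra cells (63.4%), although Pi16 Dpp4 cells were the deeper group. Counts of genes and ratios against other Pdgfra cells were also made without these cells, and are called restricted here. Restricted values of the 40 markers themselves follow in part from this choice of cells. RNA of other cells in the remaining ones was not tested.

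Against other Pdgfra cells, 329 of 13612 counted genes were higher in Pi16 Dpp4 cells (2.42%) and 897 were lower (6.59%). The restricted count gave 147 of 10237 genes higher (1.44%) and 317 lower (3.1%). The median log2 ratio over all counted genes was -0.05. Since the rule chose cells on Pi16 and Dpp4, genes that go with them had to differ, and the counts are a description of what goes with them. Later list counts against other Pdgfra cells are to be read beside 2.42% higher and 6.59% lower. Restricted list counts are to be read beside 1.44% and 3.1%. A count near these shares is not a result about the list.

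Among the highest ratios was a steroid enzyme gene found in a minority of members. Akr1c18, an enzyme that inactivates progesterone, stood at 53.4 CPM in Pi16 Dpp4 cells (51.8 and 54.4), against 0.996 CPM in other Pdgfra cells (0.626 and 1.36), a ratio of 53.6 (41.2 to 71.1). Its UMIs came from 165 members, the top cell held 4.84% of them, and the restricted ratio was 26.4. Reads of other Akr1c genes could be counted for it or withheld from it, since the family is made of close copies.

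Efemp1, which encodes the elastic fibre protein fibulin-3, stood at 272 CPM in Pi16 Dpp4 cells (272 and 273), against 16.2 CPM in other Pdgfra cells (14.1 and 18.2), a ratio of 16.8 (15.7 to 18.0). Its restricted ratio was 8.32. It was found in 34.7% of thinned Pi16 Dpp4 cells, 3.5% of other Pdgfra cells and 0.328% of blood-gated cells. Krtdap, a small secreted protein first described in keratinocytes, stood at 169.8 CPM in Pi16 Dpp4 cells (170.4 and 169), against 11.9 CPM in other Pdgfra cells (8.17 and 15.5), a ratio of 14.3 (13.2 to 15.5) (restricted 8.16). In all 3 genes the lower set of Pi16 Dpp4 cells lay above the higher set of other Pdgfra cells many times over, and the 2 sets of Pi16 Dpp4 cells lay close together.

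The bases just upstream of Dpp4, which chose the cells, and of Akr1c18, Efemp1 and Krtdap, which had some of the highest ratios, are shown because these are the genes on which the description of the cells turns. They are the RefSeq promoters of GRCm38.p6, shown 5' to 3' on the gene's strand up to the RefSeq start, without bases that GENCODE gives as UTR. For Krtdap the GENCODE gene starts earlier, at base 30787896, so the end of that window lies within it. Capitals mark matches on either strand to the AP-1 motif TGANTCA, the TEAD motif GGAATG and the TATA motif TATAAA.
Dpp4 (minus strand, chr2:62412232-62412481): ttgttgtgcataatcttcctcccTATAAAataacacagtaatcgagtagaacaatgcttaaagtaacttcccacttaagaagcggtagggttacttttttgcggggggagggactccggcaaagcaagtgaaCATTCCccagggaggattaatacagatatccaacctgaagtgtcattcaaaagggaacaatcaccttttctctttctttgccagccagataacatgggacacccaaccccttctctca
Akr1c18 (minus strand, chr13:4150655-4150896): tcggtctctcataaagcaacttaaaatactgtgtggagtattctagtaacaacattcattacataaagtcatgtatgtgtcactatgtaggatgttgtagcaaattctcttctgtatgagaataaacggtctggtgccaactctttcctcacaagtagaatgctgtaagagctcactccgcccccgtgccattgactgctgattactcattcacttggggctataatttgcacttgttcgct
Efemp1 (plus strand, chr11:28852955-28853203): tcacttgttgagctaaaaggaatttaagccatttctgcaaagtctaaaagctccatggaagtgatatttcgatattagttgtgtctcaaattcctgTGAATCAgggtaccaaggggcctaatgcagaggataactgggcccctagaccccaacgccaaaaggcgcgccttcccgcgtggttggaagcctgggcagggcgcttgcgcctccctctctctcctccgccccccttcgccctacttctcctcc
Krtdap (plus strand, chr7:30787655-30787904): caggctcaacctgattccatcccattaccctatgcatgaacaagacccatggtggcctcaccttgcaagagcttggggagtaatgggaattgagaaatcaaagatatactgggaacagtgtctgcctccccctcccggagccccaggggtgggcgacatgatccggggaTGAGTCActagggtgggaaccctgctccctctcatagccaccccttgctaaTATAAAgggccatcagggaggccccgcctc

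No motif occurred in all 4 windows: Efemp1 and Krtdap each hold 1 AP-1 match, Dpp4 holds 1 TEAD and 1 TATA match, Krtdap 1 TATA match, and Akr1c18 none of the 3. An E-box, CANNTG, was counted too and occurred 2 times in Akr1c18, 1 time each in Dpp4 and Efemp1 and 0 times in Krtdap. Of the 329 higher genes, 227 had a promoter in the table, and AP-1 was found in 6.61% of these, TEAD in 16.3%, TATA in 8.37% and the E-box in 55.5%. Over 10429 promoters of counted genes the shares were 4.41%, 10.7%, 6.45% and 56.4%. Some TEAD or E-box letters may overlap other motifs, and a match is only a run of letters.

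Further genes high on the list encode proteins better known from neurons and glycan synthesis. Gabra2, a GABA receptor subunit, stood at 8.55 CPM in Pi16 Dpp4 cells (9.34 and 8.04), against 0.257 CPM in other Pdgfra cells (0.243 and 0.271), a ratio of 33.2 (19.6 to 60.5) that rests on UMIs in 74 members. Cmah, which makes the sialic acid Neu5Gc, stood at 60.9 CPM in Pi16 Dpp4 cells (59.7 and 61.6), against 4.75 CPM in other Pdgfra cells (4.69 and 4.82), a ratio of 12.8 (11.2 to 14.6). The choline transporter-like gene Slc44a5 had a ratio of 13.6 (10.8 to 17.4), Brinp3 13.1 (11.6 to 14.7), the synaptic organiser Cbln2 10.9 (6.64 to 18.9) and Dact2, a modulator of Dishevelled in Wnt signalling, 10.8 (9.23 to 12.8). Restricted ratios were lower for most of these, at 5.86 for Cmah, 7.24 for Slc44a5, 4.63 for Brinp3 and 9.56 for Dact2. Gabra2 and Cbln2, at 10.6 and 10.6, had fewer than 100 UMIs there and were not counted. Brinp3 differed between the sets of Pi16 Dpp4 cells, at 119.7 CPM (set 1) and 49.4 CPM (set 2), while both sets of other Pdgfra cells were at 5.67 and 6.10 CPM. The predicted genes Gm3776 and Gm46323 had ratios of 12.6 and 10.1, and Gm32913, nominally the highest at 54.0, had 94.9% of its UMIs in 1 member. Antisense genes lie over Cmah, Cd34, Brinp3, Dact2, Pi16 and Dpp4 in the annotation, and the sources used here do not say whether strand was used in counting.

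**Figure D2:**
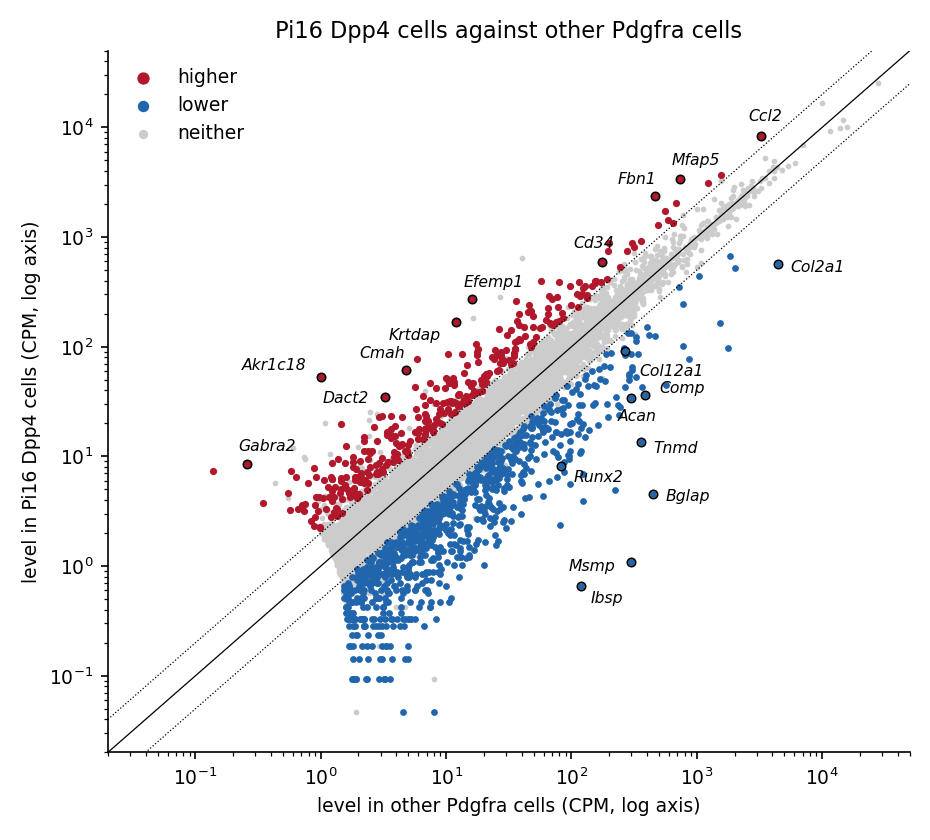
Level of each counted gene in Pi16 Dpp4 cells (y axis, CPM, log axis) and in other Pdgfra cells (x axis, CPM, log axis), with genes at least 2-fold higher (red) or lower (blue) in both barcode sets and all others, the genes of the rule included, in grey. The solid line marks equal levels and the dotted lines 2-fold differences; genes with 0 UMIs in a group are not drawn, and Akr1c18, Efemp1 and Krtdap lie far above the line, at ratios of 53.6, 16.8 and 14.3.

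Of the 28 adventitial genes, 21 were higher and 0 lower, with a median log2 ratio of 1.82 against -0.05 over all counted genes, and the restricted count was 17 higher and 0 lower with a median of 1.51. Beside the 8 markers above, the higher genes included Opcml, a cell adhesion protein, at 259 CPM in Pi16 Dpp4 cells (228 and 279), against 36.0 CPM in other Pdgfra cells (27.0 and 44.8), a ratio of 7.19 (6.84 to 7.56). Wnt2, a secreted Wnt ligand, stood at 86.0 CPM in Pi16 Dpp4 cells (89.6 and 83.6), against 13.5 CPM in other Pdgfra cells (12.6 and 14.4), a ratio of 6.37 (5.86 to 6.94). Anxa3 had a ratio of 5.23 (4.99 to 5.48), Thy1 (CD90) 4.70 (4.46 to 4.97), Pcolce2, an enhancer of collagen processing, 3.91 (3.76 to 4.07), Aldh1a3, an enzyme of retinoic acid synthesis, 3.08 (2.87 to 3.29), and the receptor kinase gene Axl 2.60 (2.52 to 2.67).

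The 7 adventitial genes that were counted as neither were Ackr3, a scavenger receptor for Cxcl12, Procr, the protein C receptor, Has1, a hyaluronan synthase, Metrnl, Tppp3, Smpd3 and the tetraspanin gene Cd9. Cd9 was the one with a ratio under 1, at 535 CPM in Pi16 Dpp4 cells (491 and 564), against 998 CPM in other Pdgfra cells (939 and 1055), a ratio of 0.537 (0.526 to 0.548). Procr stood at 156 CPM in Pi16 Dpp4 cells (134 and 169.7), against 138 CPM in other Pdgfra cells (129 and 146). In the restricted count Igfbp6 and Limch1, at 1.83 and 2.05, lost their place among the higher genes along with Cd34, Clec3b and Dpt, while Smpd3 gained one, at 2.91.

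Among 18 genes of elastic fibres and microfibrils, 4 were higher and 1 lower (median log2 ratio 0.35). The higher ones, Fbn1, Mfap5, Efemp1 and Fbln2, encode the microfibril backbone fibrillin-1, a glycoprotein bound to it, and 2 fibulins. Fbn1 stood at 2357 CPM in Pi16 Dpp4 cells (2439 and 2304), against 465 CPM in other Pdgfra cells (446 and 485), a ratio of 5.07 (4.99 to 5.14) (restricted 3.08). Mfap5 stood at 3362 CPM in Pi16 Dpp4 cells (3538 and 3248), against 737 CPM in other Pdgfra cells (713 and 761), a ratio of 4.56 (4.51 to 4.62), with a restricted ratio of 2.57, and was found in 96.9% of thinned Pi16 Dpp4 cells against 51.4% of other Pdgfra cells and 1.64% of blood-gated cells. Eln, the elastin gene itself, was close to equal, at 564 CPM in Pi16 Dpp4 cells (559.8 and 566), against 496 CPM in other Pdgfra cells (505 and 487), and so was Fbn2, the fibrillin of development, with a ratio of 1.02 (0.970 to 1.06). Emilin1, a glycoprotein of elastic fibres, was 2.55-fold lower. The crosslinking enzymes differed in direction, with ratios of 1.92 (1.86 to 1.98) for Loxl1 and 0.658 (0.633 to 0.684) for Lox, neither of them at 2-fold. The restricted count was 3 higher and 2 lower with a median of 0.03, and Fbln2, at 1.58, was no longer higher.

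Of 20 fibrillar and fibril-associated collagen genes, 0 were higher and 11 lower (median log2 ratio -1.61), and the restricted count was 0 higher and 3 lower of 14. Among the lower ones, 8 are collagens of cartilage or bone. Col2a1 stood at 569 CPM in Pi16 Dpp4 cells (431 and 657), against 4409 CPM in other Pdgfra cells (4493 and 4328), 7.76-fold lower, but its restricted ratio was 1.12, on the other side of 1. Col2a1 is itself a marker by which the restricted cells were chosen, so that ratio follows in part from the choice. Col11a1 was 11.2-fold lower and still counted as lower among restricted cells, at a ratio of 0.219. Collagens of loose connective tissue had ratios above 1 that did not reach 2: the ratio was 1.67 (1.66 to 1.68) for Col3a1, 1.86 (1.82 to 1.91) for Col5a3 and 1.45 (1.42 to 1.48) for Col14a1. Col1a1 had a ratio of 0.642 (0.639 to 0.645) and Col1a2 0.704 (0.701 to 0.707).

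Col12a1, the gene deleted in the KO mice, stood at 90.9 CPM in Pi16 Dpp4 cells (41.3 and 123), against 268 CPM in other Pdgfra cells (89.0 and 444), 2.95-fold lower. Set 2 was above set 1 in both groups, and the Pi16 Dpp4 cells of set 2 lay above the other Pdgfra cells of set 1, so the groups overlap across sets while each set gave a lower value in Pi16 Dpp4 cells. In the thinned cells Col12a1 was found in 14.4% of Pi16 Dpp4 cells, 24.6% of other Pdgfra cells and 1.78% of blood-gated cells. Its restricted ratio was 0.619, which no longer counted as lower. An antisense gene lies within it, and the set values cannot be read as genotypes.

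Collagen VI and basement membrane genes held 3 higher and 0 lower of 19 (median log2 ratio 0.09), beside 2.42% and 6.59% of all counted genes. Nid1 (nidogen-1), a linker of basement membranes, stood at 891 CPM in Pi16 Dpp4 cells (862 and 909), against 304 CPM in other Pdgfra cells (272 and 334), a ratio of 2.93 (2.88 to 3.0). The laminin chain genes Lamb1 and Lama4 had ratios of 2.09 (2.02 to 2.16) and 2.07 (1.99 to 2.15), while the collagen VI genes Col6a1, Col6a2 and Col6a3 and the collagen IV genes Col4a1 and Col4a2 lay between 0.669 and 0.901. In the restricted count Nid1 had a ratio of 1.92, and of 17 counted genes 0 were higher and 3 lower.

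Proteoglycan and hyaluronan genes held 0 higher and 6 lower of 19 (median log2 ratio 0.14). Fmod, a fibril-binding proteoglycan of tendon, stood at 45.0 CPM in Pi16 Dpp4 cells (29.1 and 55.2), against 573 CPM in other Pdgfra cells (554 and 591), 12.7-fold lower. Prg4 (lubricin), the lubricant of the joint surface, was 9.44-fold lower, Acan, the cartilage proteoglycan, 8.72-fold lower, and Bgn (biglycan) 2.79-fold lower. In the restricted count 0 were higher and 2 lower of 16, with Fmod at 0.174 and Bgn at 0.408, while Prg4, at 0.570, was no longer lower. Prg4 and Acan are among the markers by which the restricted cells were chosen. The widespread small proteoglycan genes Dcn and Lum had ratios of 1.49 (1.48 to 1.5) and 1.24 (1.21 to 1.26). Among 14 genes of tenascins, thrombospondins, CCN proteins and fibronectin 0 were higher and 6 lower (median log2 ratio -0.43), with Tnc at 7.89-fold lower and Comp at 10.5-fold lower. Tnxb, the tenascin of loose connective tissue, had a ratio of 2.28 (2.23 to 2.33) overall but was under 2 in set 2. The restricted count of this list was 0 higher and 2 lower of 12, with Tnc at 0.321 and Comp at 0.0999.

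Proteases and inhibitors differed in both directions, with 3 higher and 3 lower of 21 (median log2 ratio 0.0013), beside 2.42% and 6.59% of all counted genes. Adamts5, an aggrecan- and versican-cutting protease, stood at 358 CPM in Pi16 Dpp4 cells (386 and 340.1), against 96.5 CPM in other Pdgfra cells (93.0 and 100.0), a ratio of 3.71 (3.58 to 3.84), and Htra3 had a ratio of 3.34 (3.23 to 3.45). In the restricted count these were the 2 higher genes, at 2.35 and 2.74, and 0 of 19 were lower. Timp1, an inhibitor of metalloproteases, stood at 243 CPM in Pi16 Dpp4 cells (233 and 249.7), against 779 CPM in other Pdgfra cells (917 and 645), 3.20-fold lower, but at a restricted ratio of 0.558. Mmp13, the collagenase of hypertrophic cartilage and osteoblasts, was 31.3-fold lower, with 42.9% of its member UMIs in 1 cell. The gelatinase gene Mmp2 and the membrane-bound protease gene Mmp14 had ratios of 1.17 (1.14 to 1.20) and 1.00 (0.976 to 1.03).

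Signalling genes were mixed, and their counts stand beside 2.42% higher and 6.59% lower of all counted genes. Of 25 Wnt genes, 2 were higher and 7 lower (median log2 ratio 0.07): Wnt10b, a ligand known to hold back fat cell formation, stood at 14.7 CPM in Pi16 Dpp4 cells (13.9 and 15.2), against 3.66 CPM in other Pdgfra cells (3.16 and 4.14), a ratio of 4.02 (3.37 to 4.81), and Sfrp2, a secreted Wnt modulator, had a ratio of 2.43 (2.32 to 2.55). Wif1, a secreted Wnt inhibitor, was 10.2-fold lower and the Wnt effectors Lef1 and Tcf7 were 6.84-fold and 3.98-fold lower. The restricted count was 2 higher, again Wnt10b and Sfrp2, and 2 lower of 18. Of 28 TGF-beta and BMP genes, 4 were higher and 4 lower (median log2 ratio -0.32). Bmp7, a ligand of the BMP branch, stood at 22.9 CPM in Pi16 Dpp4 cells (23.8 and 22.3), against 2.90 CPM in other Pdgfra cells (2.47 and 3.32), a ratio of 7.90 (6.62 to 9.47), and its restricted ratio was 7.98. The secreted inhibitors Fst (follistatin) and Chrdl1 had ratios of 2.78 (2.69 to 2.87) and 2.74 (2.53 to 2.97), and Fstl1 2.54 (2.51 to 2.56), while the ligand gene Tgfb2 was 2.66-fold lower and the BMP receptor gene Bmpr1b 3.44-fold lower. In the restricted count 2 were higher and 2 lower of 25, and Fst (1.61), Chrdl1 (1.56), Fstl1 (1.86) and Tgfb2 (0.562) counted as neither.

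In the IGF axis, 11 genes had a median log2 ratio of -0.33, with 1 higher and 3 lower. Igfbp5 stood at 1282 CPM in Pi16 Dpp4 cells (1299 and 1271), against 488 CPM in other Pdgfra cells (496 and 479.9), a ratio of 2.63 (2.58 to 2.67), while Igfbp7 was 2.38-fold lower and Igfbp2 5.68-fold lower. Restricted ratios were 2.32 for Igfbp5, which no longer counted as higher in both sets, 0.349 for Igfbp7 and 0.368 for Igfbp2. The growth factor genes Igf1 and Igf2 had ratios of 1.36 (1.34 to 1.39) and 2.10 (2.07 to 2.12), and Igf2 was under 2 in set 2. FGF and PDGF genes held 0 higher and 4 lower of 15 (median log2 ratio -0.40), with Fgfr3, the receptor of growth plate cartilage, 12.5-fold lower and Pdgfrb, the mural cell receptor, at a ratio of 0.756 (0.698 to 0.818). The restricted count was 1 higher and 1 lower of 12, beside 1.44% and 3.1% of all genes counted there.

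Of 33 transcription factors 0 were higher and 5 lower, beside 2.42% and 6.59% of all counted genes, with a median log2 ratio of -0.07. Those 5 were the lineage factors Runx2 and Sp7 of bone, Sox9 of cartilage, and Scx and Mkx of tendon. Runx2 stood at 8.22 CPM in Pi16 Dpp4 cells (7.30 and 8.81), against 82.9 CPM in other Pdgfra cells (86.4 and 79.5), 10.1-fold lower, and Scx was 13.6-fold lower. The restricted count was 0 higher and 3 lower of 28, with Runx2 at 0.306. The mesenchymal factors Prrx1, Twist1, Zeb2 and Klf4 had ratios of 1.19 (1.16 to 1.23), 0.928 (0.883 to 0.976), 1.20 (1.17 to 1.23) and 1.33 (1.30 to 1.37). All 7 chondrocyte, 6 osteoblast, 5 tenocyte and 4 synovial lining genes were lower, with median log2 ratios of -2.96, -4.55, -3.57 and -2.89. How far single comparison cells carried the lower ratios was not tested. Fam83a, for example, stood at 0.268 and 15.2 CPM in sets 1 and 2 of cells with Pi16 only and at least 5000 UMIs. In cells with neither gene it stood at 9.18 and 0.263 CPM. The lowest single genes were Msmp (275-fold lower), the bone gene Ibsp (179.8-fold lower), Gpha2, Bglap (osteocalcin), Mmp12, Bglap2, Cyyr1 and Fam83a. Each of these genes had fewer than 100 UMIs in the restricted cells, which were chosen in part by osteoblast genes, and was not counted there. The ratios were 1.28 for Msmp, 1.28 for Mmp12, 0.855 for Bglap, 3.11 for Bglap2 and 0.214 for Ibsp. Mmp12 stood at 0.047 CPM in members with at least 5000 UMIs, below the 0.141 CPM of 3 UMIs. The restricted ratio of Mmp12 therefore rests on too few UMIs to show a direction. Bglap and Bglap2 are close copies whose reads cannot be fully separated.

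Genes of fat cell formation showed 0 higher and 2 lower of 13 (median log2 ratio 0.01), beside 2.42% and 6.59% of all counted genes. Fabp4 and Cd36, genes of lipid uptake that endothelium also expresses, were 10.1-fold and 5.28-fold lower, and 1 member held 51.8% of the Fabp4 UMIs, with restricted ratios of 0.261 and 0.167. Pparg, the master regulator of fat cells, had a ratio of 1.11 (0.922 to 1.32), the preadipocyte gene Dlk1 1.14 (1.12 to 1.15) and the committed preadipocyte factor Zfp423 1.21 (1.09 to 1.34). Adipoq, the adipocyte hormone gene, had 1 UMI in 1 member. Of 17 genes marking other fibroblast subsets, Ebf2, a factor of preadipocytes, was higher, at a ratio of 2.41 (2.32 to 2.51) (restricted 1.58), and Col15a1, Gas6, Cxcl14 and Frmpd4 were lower (median log2 ratio -0.12). Col15a1, which marks a parenchymal fibroblast type in other mouse tissues, stood at 134 CPM in Pi16 Dpp4 cells (94.2 and 159), against 281 CPM in other Pdgfra cells (219.8 and 340.3), 2.10-fold lower, with a restricted ratio of 0.299.

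Most relatives of the selecting genes were counted as neither, as were most of all counted genes, of which 2.42% were higher and 6.59% lower. Of 14 counted CAP family and dipeptidyl peptidase relatives, Pi15 was higher, at a ratio of 2.36 (2.23 to 2.48), and Crispld1 and Crispld2 were lower (median log2 ratio 0.15). In the restricted count Crispld2 alone was lower, at 0.181, and Pi15 (1.52) and Crispld1 (0.876) counted as neither. Fap, the closest relative of Dpp4 and a marker of activated fibroblasts, stood at 169 CPM in Pi16 Dpp4 cells (159 and 176), against 180.3 CPM in other Pdgfra cells (175 and 185), a ratio of 0.937 (0.902 to 0.973). Among 23 cell cycle genes Cdkn1c, the imprinted cell cycle inhibitor p57, was higher, at 1342 CPM in Pi16 Dpp4 cells (1186 and 1443), against 648 CPM in other Pdgfra cells (580.3 and 714), a ratio of 2.07 (2.04 to 2.10), and the licensing factor gene Cdt1 was 2.92-fold lower (median log2 ratio -0.67). Mki67 and Top2a, which mark dividing cells, had ratios of 0.503 (0.454 to 0.556) and 0.516 (0.469 to 0.567), and in the restricted count both were lower, at 0.204 and 0.283, while Cdkn1c had 1.48 and was no longer higher. Of 18 immediate early and heat shock genes, which digestion is known to induce, 0 were higher and 2 lower (median log2 ratio -0.45).

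**Figure D3:**
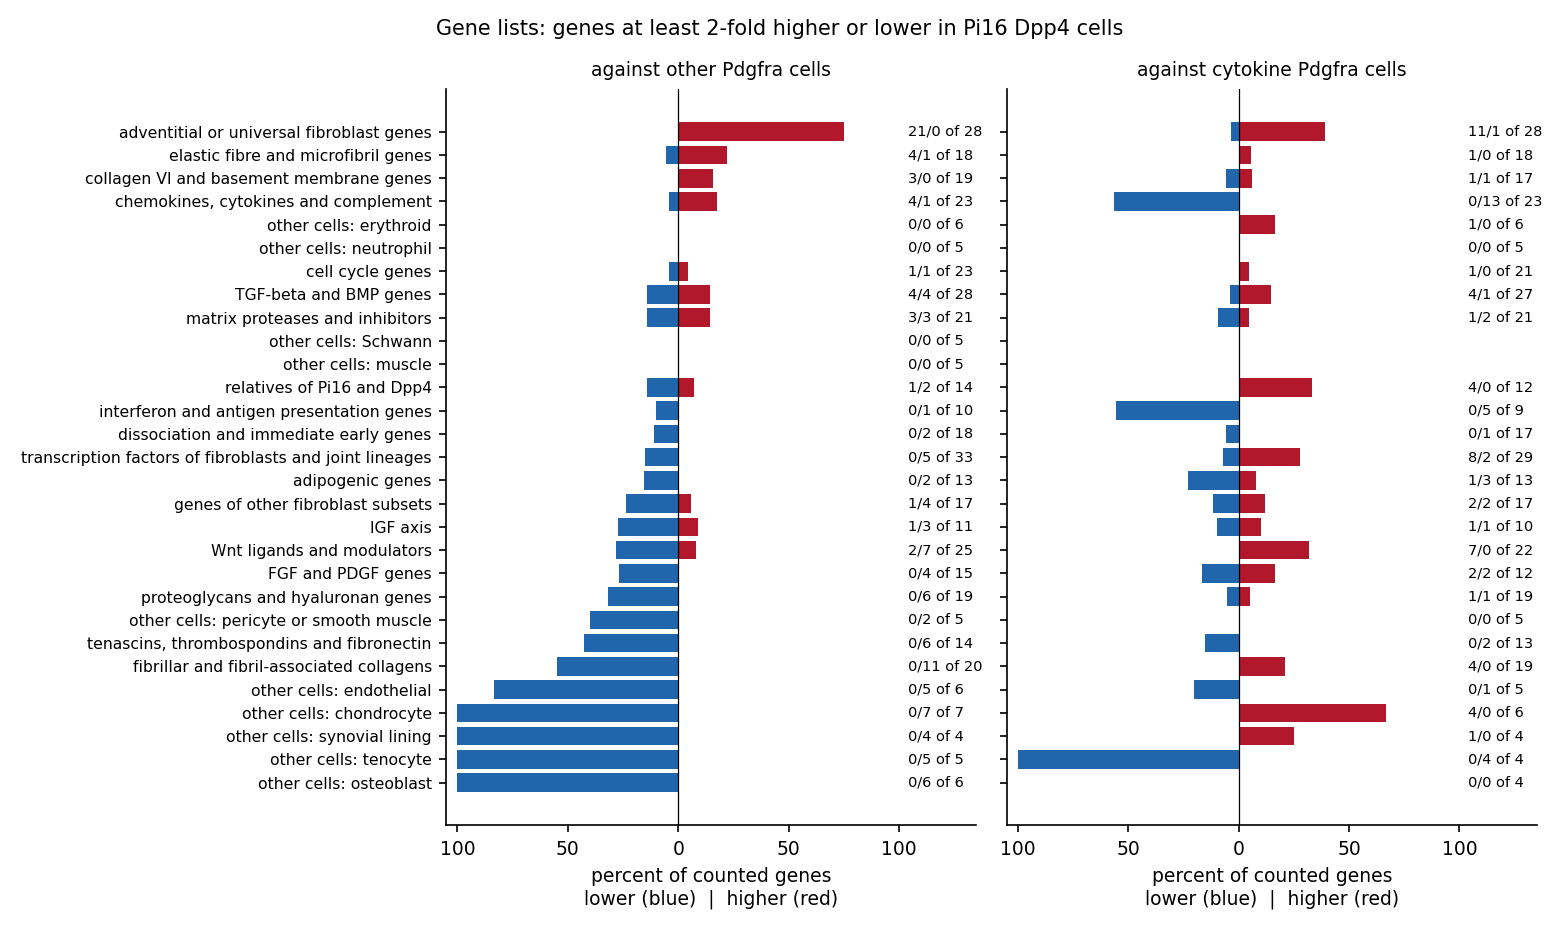
Percent of the counted genes of each list that were at least 2-fold lower (blue, left of 0) or higher (red, right of 0) in Pi16 Dpp4 cells in both barcode sets, against other Pdgfra cells (left panel) and against cytokine Pdgfra cells (right panel); the text at the right gives higher and lower genes of those counted. The adventitial list stands at 21 higher and 0 lower of 28 on the left and at 11 higher and 1 lower on the right.

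For the 10 genes plotted by detection of Pi16 and Dpp4, cells with only one of these genes lay between the members and cells with neither. With at least 5000 UMIs per cell, 981 Pi16 Dpp4 cells, 552 with Pi16 only, 413 with Dpp4 only and 2038 with neither had median depths of 20010, 13002, 17702 and 14376 UMIs. In this order Mfap5 stood at 3362, 1758, 1162 and 405 CPM, and Cd34 at 589, 346, 322 and 105 CPM. Efemp1 was more sharply parted, at 273, 42.0, 34.0 and 6.24 CPM, and so was Akr1c18, at 53.4, 5.04, 0.239 and 0.175 CPM. Wnt2 stood at 86.0, 35.2, 20.7 and 6.89 CPM and Cmah at 60.9, 11.7, 12 and 1.5 CPM. Not every gene had this order: Col15a1 stood at 134, 392, 267 and 257 CPM and was highest in cells with Pi16 only, and the tendon gene Tnmd stood at 13.5, 63.0, 386 and 421 CPM. In shallower cells a Pi16 or Dpp4 transcript is missed more often, so the cells with one gene may include cells with both.

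**Figure D4:**
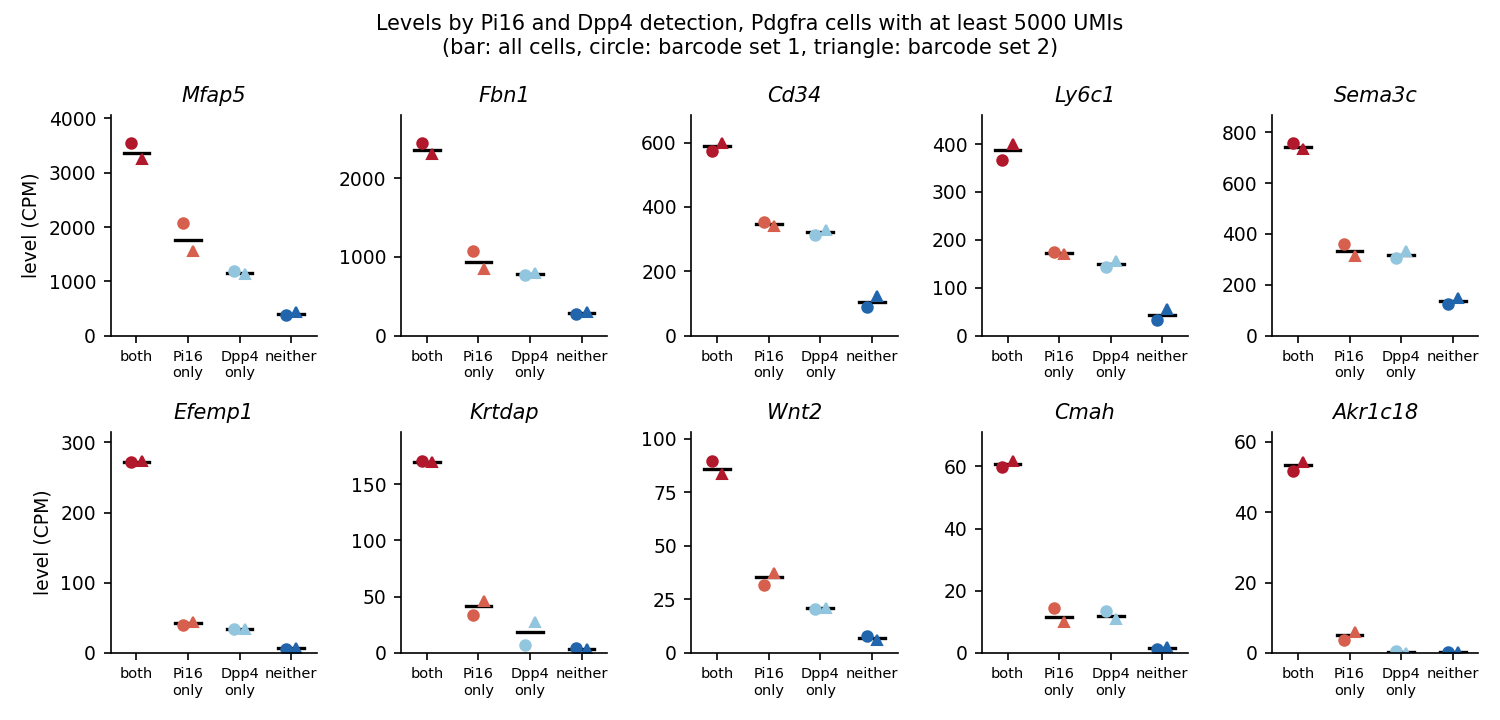
Levels of 10 genes (y axes, CPM from 0) in Pdgfra cells with at least 5000 UMIs, grouped by detection of both Pi16 and Dpp4, Pi16 only, Dpp4 only or neither (x axis); bars give all cells, circles barcode set 1 and triangles set 2. In each of the 10 genes both sets are highest in cells with both and, Akr1c18 in set 2 apart, lowest in cells with neither, as in Efemp1, at 273, 42.0, 34.0 and 6.24 CPM.

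Some of the genes with high ratios went with the amount of Pi16. The 118 members with 1 Pi16 UMI, the 235 with 2 to 4 and the 629 with 5 or more had median depths of 14200, 15376 and 22238 UMIs. Over these bins, low to high, Efemp1 stood at 108, 155 and 328 CPM, Krtdap at 25.2, 42.5 and 225 CPM and Akr1c18 at 5.24, 7.93 and 72.7 CPM. The bin with 5 or more was the highest for these 3 genes in both sets. Col15a1 and the transporter gene Abca8a ran the other way, at 277, 222 and 89.5 CPM and 177, 154 and 77.1 CPM, and were lowest in that bin in both sets. The bins were made from the selecting gene and differ in depth, so the order is a description.

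Against cytokine Pdgfra cells, 1386 of 11137 counted genes were higher in Pi16 Dpp4 cells (12.4%) and 249 were lower (2.24%), with a median log2 ratio over all counted genes of 0.22. The cytokine cells were chosen by Cxcl5, Csf2, Csf3, Ptgs2 and Saa3, so a difference in genes that go with these had to appear. Members also had to carry Pi16 and Dpp4, which 177 of the 426 cytokine cells did. Genes that go with Pi16 and Dpp4, in either direction, therefore had to differ as well. Against the 177 cells alone, 1588 of 10559 counted genes were higher and 149 lower. Of 28 adventitial genes 11 were higher and 1, Procr, was lower (median log2 ratio 1.17). Cd248 stood at 288 CPM in Pi16 Dpp4 cells (244 and 316), against 38.5 CPM in cytokine Pdgfra cells (26.6 and 63.0), a ratio of 7.48 (6.84 to 8.19), and Efhd1, a mitochondrial calcium-binding protein, at 86.3 CPM in Pi16 Dpp4 cells (81.9 and 89.1), against 9.18 CPM in cytokine Pdgfra cells (6.63 and 14.5), a ratio of 9.40 (7.84 to 11.4). Cd34 and Sema3c had ratios of 3.26 (3.12 to 3.40) and 3.56 (3.42 to 3.71), while Ly6a and Dpt had ratios of 1.80 (1.75 to 1.85) and 1.54 (1.5 to 1.58) and were not counted as higher.

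Of 23 chemokine, cytokine and complement genes 0 were higher and 13 lower (median log2 ratio -1.33). Ccl2, which draws monocytes, stood at 8427 CPM in Pi16 Dpp4 cells (8432 and 8424), against 21202 CPM in cytokine Pdgfra cells (21400.0 and 20790.0), 2.52-fold lower. Against other Pdgfra cells the same gene was higher, at a ratio of 2.58 (2.56 to 2.60), so Pi16 Dpp4 cells as a whole lay between the 2 groups. Ptx3, a soluble pattern receptor, did likewise, 2.33-fold lower than cytokine Pdgfra cells and at a ratio of 3.0 (2.96 to 3.05) to other Pdgfra cells, and so did the complement gene C3, 2.74-fold lower and at a ratio of 2.35 (2.03 to 2.72). The cytokine limit of the rule bears on this order, and its part was not tested. Members with no cytokine gene, given below, had less Ccl2 and Ptx3 than other Pdgfra cells, which were not split that way. The neutrophil chemokine gene Cxcl2 was 6.33-fold lower than in cytokine Pdgfra cells and Il6 6.43-fold lower. Il33, an alarmin held in the nucleus, was higher than in other Pdgfra cells, at 47.1 CPM in Pi16 Dpp4 cells (43.1 and 49.7), against 16.3 CPM in other Pdgfra cells (15.3 and 17.3), a ratio of 2.89 (2.64 to 3.16), and had a ratio of 1.35 (1.21 to 1.51) to cytokine Pdgfra cells. Restricted ratios over other Pdgfra cells were 1.59 for Ccl2, 1.62 for Ptx3 and 1.92 for Il33, and 0 chemokine genes remained higher there.

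Interferon and antigen presentation genes were lower in 5 of 9 counted against cytokine Pdgfra cells and higher in 0 (median log2 ratio -1.12). Isg15 stood at 64.9 CPM in Pi16 Dpp4 cells (44.7 and 77.9), against 266 CPM in cytokine Pdgfra cells (292 and 213), 4.11-fold lower. Against other Pdgfra cells 0 of 10 were higher and 1 was lower, beside 2.42% and 6.59% of all counted genes. Isg15 stood at 44.7 CPM (set 1) and 77.9 CPM (set 2) in Pi16 Dpp4 cells, against 103 and 45.9 CPM in other Pdgfra cells. The 2 sets thus differed in order.

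Of 29 transcription factors 8 were higher and 2 lower against cytokine Pdgfra cells, beside 12.4% and 2.24% of all counted genes, and Creb5, a factor of joint tissue, stood at 285 CPM in Pi16 Dpp4 cells (273 and 294), against 40.7 CPM in cytokine Pdgfra cells (37.6 and 47.0), a ratio of 7.02 (6.43 to 7.67). Nfia and Nfix had ratios of 4.40 (4.09 to 4.74) and 2.35 (2.22 to 2.48), and Meis1 and Meis2 4.09 (3.18 to 5.33) and 2.91 (2.52 to 3.37). Of 22 Wnt genes 7 were higher and 0 lower, among them Wnt5a, a ligand of the branch without beta-catenin, at 47.7 CPM in Pi16 Dpp4 cells (52.8 and 44.4), against 6.61 CPM in cytokine Pdgfra cells (6.41 and 7.01), a ratio of 7.22 (5.82 to 9.06). Cdkn1c and Ebf2 had ratios of 4.47 (4.33 to 4.62) and 7.83 (7.09 to 8.67). Tendon genes were lower, 4 of 4 counted, with Tnmd 17.0-fold lower. The lowest ratios were those of U90926, Ccl19, Wincr1, Ido2, Hp and Emcn. The haptoglobin gene Hp was 30.0-fold lower and the endothelial gene Emcn 26.1-fold lower. Of the genes with the highest ratios here, Tenm2, Gm12299, Gm32913, Batf2 and Saa2 each had between 62.2% and 97.2% of their member UMIs in 1 cell. The cartilage genes Col2a1 and Col9a1 counted as higher here too, with Col2a1 at 569 CPM in Pi16 Dpp4 cells (431 and 657), against 105 CPM in cytokine Pdgfra cells (137 and 38.9).

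Within the cells that carried Pi16 and Dpp4, levels moved with the number of the 5 cytokine genes detected. Members with 0, 1 and 2 of these genes and the 177 excluded cells with 3 or more had median depths of 18226, 18753, 25184 and 29702 UMIs. Across these bins Ccl2 stood at 1242, 7887, 17392 and 27656 CPM, Cxcl1 at 639, 3939.7, 11291 and 18603 CPM and Ptx3 at 347, 2065, 3957 and 6692 CPM. Cd34 stood at 802, 577, 362 and 262 CPM, Sema3c at 998, 729, 473 and 346 CPM, Cdkn1c at 2009, 1317, 618 and 342 CPM and Ebf2 at 399, 220.1, 92.6 and 31.1 CPM. The microfibril gene Mfap5 and Efemp1 varied less, at 3544, 3315, 3221 and 2767 CPM and 266, 285, 262 and 209.5 CPM. In both sets the chemokine genes were lowest with no cytokine gene detected and Cd34, Sema3c, Cdkn1c and Ebf2 were highest there. The number of cytokine genes detected is part of the rule and goes with depth, and the part of depth was not tested.

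**Figure D5:**
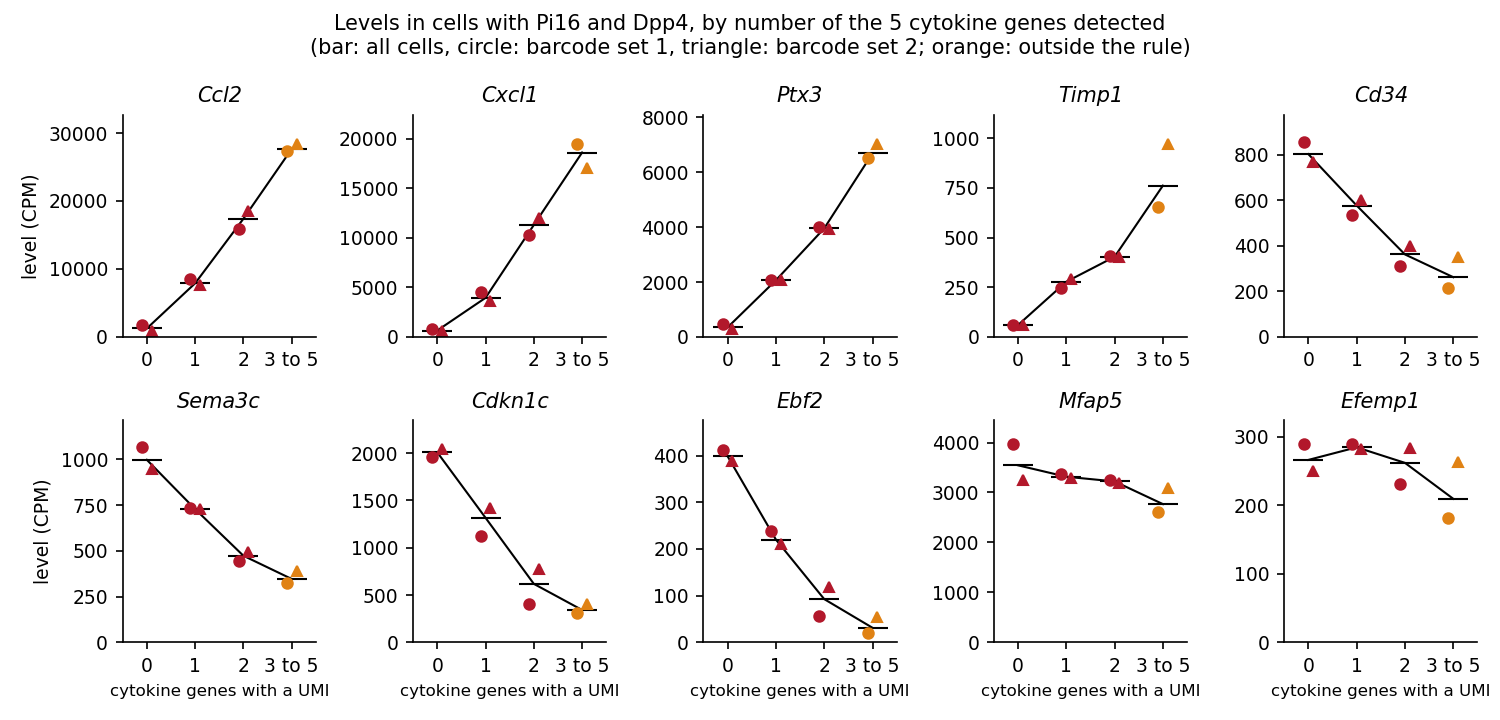
Levels of 10 genes (y axes, CPM from 0) in cells with Pi16, Dpp4 and Pdgfra by the number of the 5 cytokine genes detected (x axis); bars give all cells, circles barcode set 1, triangles set 2, and orange marks the 177 cells outside the rule. Ccl2 stands at 1242, 7887, 17392 and 27656 CPM from left to right, while Ebf2 stands at 399, 220.1, 92.6 and 31.1 CPM.

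Haemoglobin and chemokine genes varied most between members after thinning. Of 3187 genes with a mean of at least 0.1 UMI, 364 had a Fano factor (variance over mean) of at least 1.5 in both sets. The haemoglobin genes Hbb-bs, Hba-a1, Hba-a2 and Hbb-bt had Fano factors of 367, 126, 90.2 and 50.7, the chemokine genes Ccl2, Cxcl1 and Cxcl2 49.3, 27.8 and 24.8, Col2a1 71.9 and the heat shock gene Hspa1a 25.4. Gm42418, at 39.4, completes the 10 most variable genes. Ccl2 was found in 49.4% of thinned Pi16 Dpp4 cells, 35.2% of other Pdgfra cells and 17.6% of blood-gated cells. Hbb-bs was found in 54.6% of thinned members, and erythroid genes summed to 7892 CPM in Pi16 Dpp4 cells (12935 and 4636), against 10367 CPM in other Pdgfra cells (11643 and 9122). Immediate early and heat shock genes summed to 7613 CPM (5739.7 and 8823), against 8638 CPM (7564 and 9685). Hba-a1 and Hba-a2 are near-identical copies. The sets differed in erythroid and heat shock RNA within Pi16 Dpp4 cells, and the part of either in other values was not tested.

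Against all other kept cells, blood cells included, 780 of 16891 counted genes were higher in Pi16 Dpp4 cells (4.62%) and 3001 were lower (17.8%). Of the 28 adventitial genes 25 were higher and 0 lower there (median log2 ratio 2.27, against -0.12 over all counted genes), and of 18 elastic fibre genes 9 were higher and 0 lower (median 1.16). Collagen genes held 4 higher and 10 lower of 20 (median -1.40).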

How the data were processed

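Single-cell RNA libraries of digested postnatal day 7 knee joints were deposited by the authors as 1 merged matrix of UMI counts, 32285 genes by 24203 barcodes with 257619292 UMIs, made with Cell Ranger 7.0.0 per the file headers and with mm10 per the submitters' processing notes. The counts are raw. No doublet caller was run and doublets were not removed. Counts were summed per group and barcode set and divided by group totals. Shares came from cells thinned to 2000 UMIs (5000 for co-detection), with Clopper-Pearson intervals, and a group at 0 was set to 3 counts. The design foresaw no test with 1 sample, since barcode endings could not be tied to genotypes, and the comparison of Col12a1 KO with WT was not run. Named genes were the members of fixed lists, the 12 highest and 8 lowest counted genes over other Pdgfra cells, the 6 highest and 6 lowest over cytokine Pdgfra cells, the 10 most variable and the 10 at the highest level. The values of 1 gene on the lists are not reported here. Members, lists and call rules were chosen with earlier results of these data known. Alternatives changed cell filters, the count minimum, the fold, barcode sets, the cytokine limit and the comparison cells. Python 3.11.15, numpy 2.4.6, scipy 1.17.1, pandas 2.3.3 and matplotlib 3.10.9 were used, with promoters from RefSeq GRCm38.p6 and gene positions from GENCODE, in which 32158 of the gene IDs were found.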

Additional observations from a re-analysis of the deposited data

How the results depend on the processing

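The share of Pi16 Dpp4 cells among kept cells, 6.47%, was 7.47% with at least 1000 genes and 2000 UMIs, 5.69% with at least 200 genes and 500 UMIs, 4.36% when at least 2 UMIs of both Pi16 and Dpp4 were asked for, 2.36% when all 5 cytokine genes had to be at 0 and 7.64% with no cytokine limit. It was 5.13% in barcode set 1 and 7.67% in set 2. Of the 329 higher and 897 lower genes against other Pdgfra cells, a fold of 1.5 gave 785 and 1642, the restricted cells gave 147 and 317, a minimum of 500 UMIs gave 476 lower genes, and cells with neither Pi16 nor Dpp4 as the comparison gave 494 higher genes. Of the 1386 higher and 249 lower genes against cytokine Pdgfra cells, a fold of 1.5 gave 2696 and 644 and a minimum of 500 UMIs gave 517 and 152. A minimum of 20 UMIs gave 2180 higher genes. Lower genes numbered 838 when members had none of the 5 cytokine genes, 386 in set 1 alone and 149 against cytokine cells that also had Pi16 and Dpp4. The causes were not tested. Of 146 called genes followed through 14 settings, giving 1955 values, 3 values changed direction, all in the restricted cells: Col2a1 to a ratio of 1.12, Fgfrl1 to 1.01 and Omd to 1.40. Col2a1 is itself a marker by which the restricted cells were chosen. Values on fewer than 100 UMIs are not among the 1955. On such counts 7 lower genes, from Tcf7 at 1.07 to Bglap2 at 3.11, had restricted ratios above 1. Some of these, such as Mmp12, had too few UMIs to show a direction. The ratios of the 21 adventitial genes counted as higher over other Pdgfra cells ranged from 1.5 to 22.2 over these settings. The restricted cells, the comparisons with cells with neither gene and with cytokine cells with both, and leaving out each gene's top cell were chosen after seeing the data. The top cell was left out among members only, not among comparison cells. No paired analysis was possible because the matrix carries no replicate numbers. Intervals cover counting error only, since cells of 1 matrix are not replicates.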
